A study of Mus musculus with 4 samples.

Results

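The genes described here are the nucleolar processing factors, RNA polymerase I subunits, exosome subunits and DEAD-box and DEAH-box RNA helicases of the mouse. They were taken by their symbols (Nop, Utp, Rrp, Noc, Nol, Polr1, Exosc, Ddx and Dhx, each followed by its number or letter). Ddx3y, Ddx4, Ddx58, Ddx60 and Dhx58 were left out. The rule found 102 genes among the 18193 genes named on the array, and 98 of them were bright enough to be tested. Where a gene had several probe sets, the one with the highest mean over the 4 arrays stood for it.

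Ribosomes are built in the nucleolus. RNA polymerase I transcribes a long precursor of the ribosomal RNAs, small nucleolar ribonucleoproteins (snoRNPs) modify it, and the small subunit processome and a chain of large subunit assembly factors fold and cut it. The RNA exosome trims RNA from its 3′ end, and RNA helicases of the DEAD and DEAH families open RNA helices at each of these stages as well as in splicing, export, translation and decay. In bone marrow this machinery is known to be abundant in growing progenitors, and granulocytes are known to lose nucleoli as they mature.

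The study measured marrow cells of mice with leukemia driven by MN1, a transcriptional coregulator, and mature myeloid marrow cells of healthy mice, with 2 arrays in each group. For the leukemias, C57BL/6J donors had received 150 mg/kg 5-fluorouracil 4 days before harvest. Their marrow was stimulated for 48 hours with human interleukin-6 (10 ng/mL), mouse interleukin-3 (6 ng/mL) and mouse stem cell factor (20 ng/mL), and transduced with MN1 from a retroviral producer line. Cells sorted for the GFP marker were kept in the same cytokines and injected into syngeneic mice given 750 cGy, together with fresh marrow cells that let the hosts survive. The leukemic group, labelled MN1 leukemic, is bone marrow of such mice, so other marrow cells may be in it. The mature group, labelled Gr1/Mac1, is C57BL/6J marrow cells positive for the myeloid antigens Gr1 and CD11b. The labels carry the same protocol text for all 4 arrays, and the design text says that the mature cells came from healthy mice. The sources used here give neither sex nor age. No array holds normal immature cells, so the effect of leukemia cannot be told apart from that of immaturity.

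Values are MAS5 signals, linear intensities scaled by the authors. Log2 fold changes are differences of log2(signal + 16), the mean of the leukemic less that of the mature arrays, with limma's SE, and understate the change of dim genes. A gene is said to have risen or fallen where limma's adjusted p over all 12379 tested genes was under 0.05. Having 2 arrays a group limits how precise each value is. In bulk RNA, more cells of a type and more RNA per cell cannot be told apart.

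Most of the tested genes of this machinery had a higher signal in leukemic marrow. Of the 98 tested, 65 rose (66.3%) against 27.5% of all tested genes, and 2 fell (2.04%) against 15.9% of all tested genes. Their median log2 fold change was 1.34, while that of all tested genes was 0.28. A rise of at least 4-fold that passed was seen in 29 of them (29.6%) and in 11.8% of all tested genes. The leukemic arrays both lay above both mature arrays in 81 of the 98, and below them in 3 (Dhx8, Dhx38 and Dhx40). In the remaining 14 the groups overlapped. At an unadjusted p under 0.05, limma's test gave 72 higher and 2 lower. The counts of separated arrays and of unadjusted p were not made over all tested genes. No background share stands beside them. The log2 fold change lay above 0 in 92 of the 98 and in 7370 of all 12379 tested genes. In each role or pathway list below with 0 falls, 0 genes were lower at an unadjusted p under 0.05 too. The filter on low signals can keep a gene because of the group in which it is high. With no filter all 102 genes could be tested, and 58 rose and 1 fell, against 17.0% and 10.1% of all genes.

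**Figure D1:**
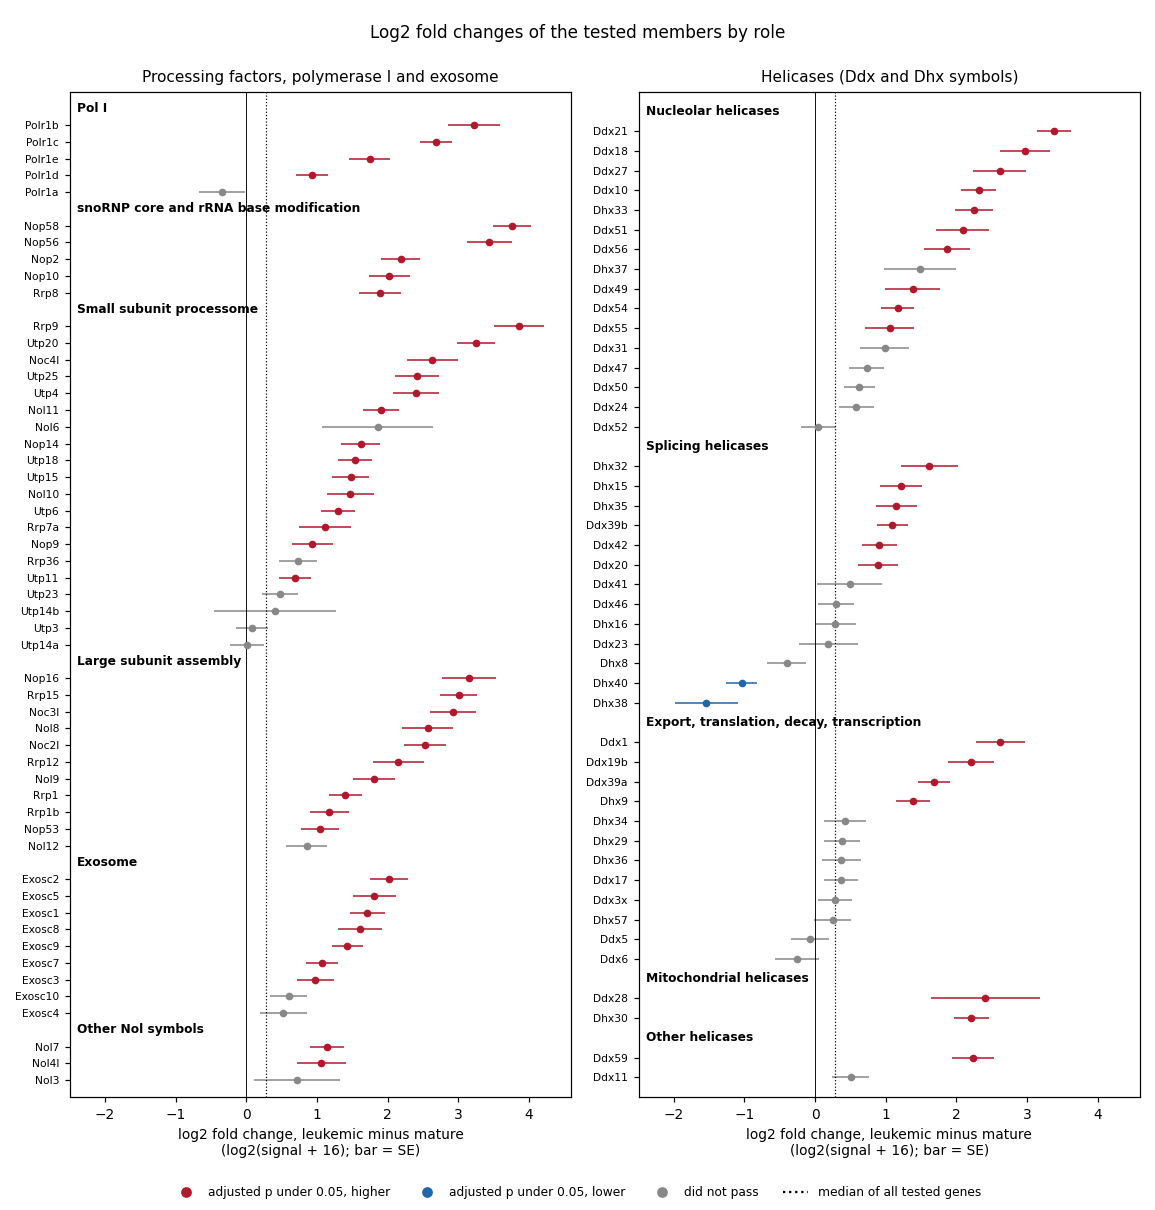
Log2 fold change (x axis, leukemic minus mature, with limma's SE as bars) of the 98 tested genes (y axis), grouped by role, with the signals as deposited. Red points rose, blue points fell and grey points did not pass at an adjusted p of 0.05, and the dotted line is the median of all tested genes, 0.28. The processing factors on the left lie mostly right of that line, and Dhx38 and Dhx40 are the points that fell.

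The direction of many single genes depended on how the arrays were scaled. With every array at the same median, 46 of the 98 rose and 2 fell (all tested genes 18.3% and 18.5%). The scaling to the manufacturer's hybridization controls used a common factor for the arrays of each group. With it, 24 rose and 22 fell (all tested genes 8.75% and 48.0%). The median of all tested genes was then -0.95 and that of the group 0.025. The group's median lay above that of all genes by 1.06 as deposited, by 1.04 at the same median and by 0.98 with the hybridization controls. These scalings multiply whole arrays by a factor, which shifts all log2 fold changes by nearly the same amount. The distance could therefore hardly change, and it is no check on the scaling. Of the 65 that rose as deposited, 39 also passed whichever array was left out. Without leukemic replicate 2 the count of rises was 40, and that of changed genes of any kind dropped as well.

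**Figure D2:**
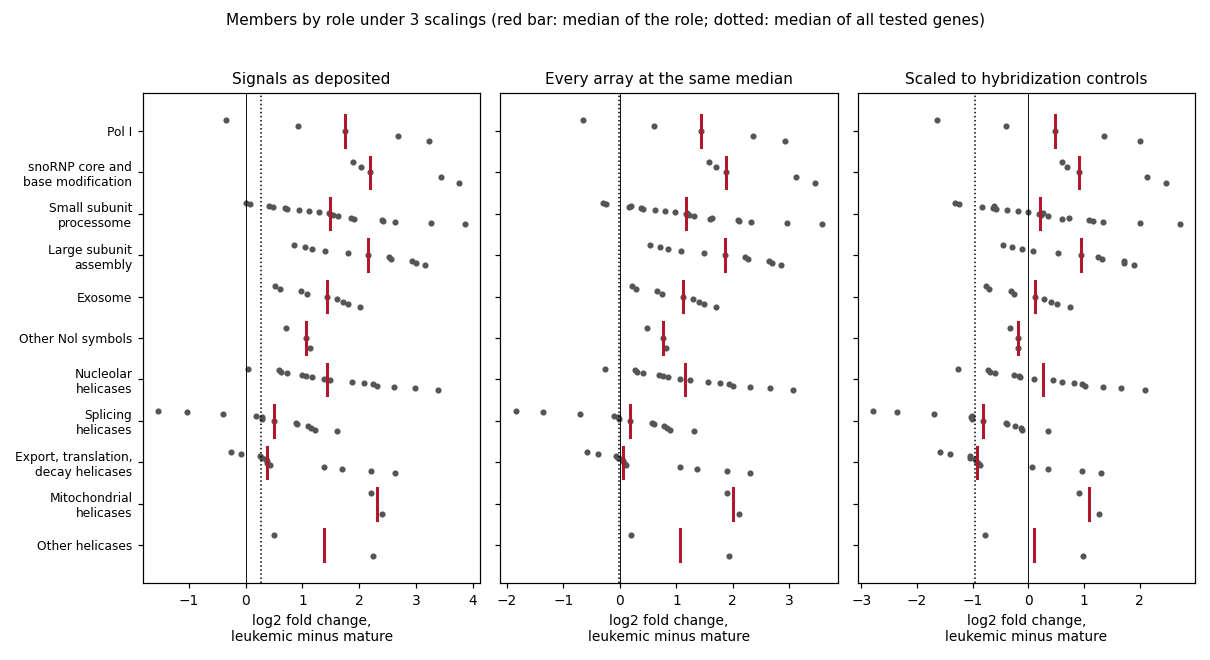
Log2 fold change (x axis) of each tested gene (grey points) by role (rows) with the signals as deposited, with every array at the same median, and scaled to the hybridization controls. Red bars are role medians and dotted lines the median of all tested genes, which moves from 0.28 to -0.017 and -0.95. The medians of the splicing, the export, translation and decay helicases and the other Nol symbols turn below 0 in the right panel, and those of the other roles stay above it.

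The arrays differed in other measures too. Mn1 itself read 17.7 and 92.6 on the leukemic and 3.92 and 12.1 on the mature arrays, and whether its probe set lies in the transduced sequence is not known here. The beta-actin control, read at its 3′ end and divided by its 5′ end as a measure of RNA integrity and labelling, gave 3.28 and 3.09 for the leukemic and 1.32 and 1.39 for the mature samples. The hybridization controls had a geometric mean signal of 11918 and 8949.8 against 4044 and 4167. Markers of stem and progenitor cells (8 of 8 tested higher), of mast cells and basophils (5 of 5) and of erythroid cells (5 of 6) rose. Their summed signals were 59505 and 68241 against 2614 and 3461, 45266 and 59237 against 467 and 308, and 44770.3 and 60539 against 6538 and 2705. Of the 14 neutrophil and monocyte markers 7 fell and 0 rose, with summed signals of 491617 and 289497 against 492105 and 379710.0. Of the 5 B and plasma cell markers 2 fell, with summed signals of 2393 and 1798 against 15696 and 6168. Of 5 megakaryocyte markers 2 rose (3402 and 3029 against 848 and 855), and of the 3 tested T and NK markers 1 rose and 1 fell (2379 and 1793 against 1972 and 1638). The brighter probe set of the Y-linked gene Eif2s3y read 4409 on mature replicate 2 and at most 3.01 on the other arrays. What part these measures have in the results was not tested.

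RNA polymerase I came first in the order of the pathway, and 4 of its 5 subunits on the array rose. Polr1b, the second largest subunit, read 1117 and 783 on the leukemic arrays and 112 and 64.5 on the mature arrays. The leukemic arrays lay far above the mature ones, with a log2 fold change of 3.23 (SE 0.37, adjusted p = 0.0011). Polr1c, a subunit shared with RNA polymerase III, read 4973 and 5715 on the leukemic arrays and 872 and 763 on the mature arrays, again without overlap, for 2.68 (SE 0.23, adjusted p = 4.5e-04). Polr1e, which is known to help initiation, read 666 and 882 against 233 and 202 and gave 1.75 (SE 0.29, adjusted p = 0.0037). Polr1d, the other shared subunit, read 5304 and 5665 against 3122 and 2654, a smaller difference of 0.93 (SE 0.22, adjusted p = 0.015). Polr1a, the largest subunit, which holds the catalytic centre together with Polr1b, did not pass, and is named after its value was seen. It read 784 and 739 on the leukemic arrays and 1311 and 716 on the mature arrays, so that mature replicate 2 lay below both leukemic arrays and mature replicate 1 above them (-0.34, adjusted p = 0.44). Its next brightest probe set gave -1.10, and a dimmer kept set 0.092. With the hybridization controls Polr1a fell (-1.65, adjusted p = 0.0056). Over the other alternatives it lay between -0.77 and 0.085.

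Among these calls, those of Polr1b and Polr1c passed whichever array was left out. Polr1e did not pass without leukemic replicate 2 (1.55, adjusted p = 0.061) or with the hybridization controls (0.47, adjusted p = 0.20). Polr1d did not pass without leukemic replicate 1 (0.97, adjusted p = 0.080) or 2 (0.88, adjusted p = 0.12), nor with every array at the same median (0.61, adjusted p = 0.20), and its direction turned with the hybridization controls (-0.40). Other polymerase I probe sets gave 2.18 for Polr1c, 1.14 for Polr1e and 0.55, 0.45 and 1.04 for Polr1d. The calls of Polr1e and Polr1d came from probe sets of a kind that may detect several transcripts. Without sets of such kinds Polr1e (1.14, adjusted p = 0.063) and Polr1d (0.55, adjusted p = 0.23) did not pass.

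All 5 genes of the snoRNP core and of ribosomal RNA base modification rose, with a median of 2.18. Nop56 and Nop58 are the paired core proteins of the box C/D snoRNPs, which guide 2′-O-methylation. Nop58 read 2963 and 2318 on the leukemic arrays and 159 and 199.8 on the mature arrays, and Nop56 read 4749 and 4625 on the leukemic arrays and 567 and 306 on the mature arrays. Neither overlapped between groups, and the log2 fold changes were 3.76 (SE 0.27, adjusted p = 2.8e-04) and 3.44 (SE 0.32, adjusted p = 5.8e-04). Nop2, a methyltransferase of the large ribosomal RNA, read 1115 and 1058 against 259.8 and 197 and gave 2.18 (SE 0.28, adjusted p = 0.0015). Nop10, a core protein of the box H/ACA snoRNPs that guide pseudouridylation, read 13013 and 13666 against 4218 and 2522, with 2.03 (SE 0.30, adjusted p = 0.0023). The fifth gene, the methyltransferase gene Rrp8, gave 1.89, adjusted p = 0.0030. These 5 calls held whichever array was left out. With the hybridization controls the median was 0.90 and 3 of the 5 rose, while Nop10 (0.70, adjusted p = 0.083) and Rrp8 (0.60, adjusted p = 0.13) did not pass.

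The small subunit processome, the particle that assembles on the 5′ part of the precursor, held both large rises and genes with almost equal signals. Of its 20 tested genes 14 rose and 0 fell, with a median of 1.48. With every array at the same median 11 rose and 0 fell. With the hybridization controls 5 rose and 4 fell (all tested genes 8.75% and 48.0%), with a median of 0.21. Rrp9, the protein specific to the U3 snoRNP, read 658 and 844 on the leukemic arrays and 40.4 and 32.8 on the mature arrays. That is the largest log2 fold change among the 98, 3.86 (SE 0.35, adjusted p = 5.4e-04). Both of its mature signals lay under the lowest kept mean signal, 47.6, so its leukemic signals carried it past the filter. Utp20, a long repeat protein of the processome, read 1289 and 1384 on the leukemic arrays and 126 and 125 on the mature arrays, with replicates close to each other and 3.26 (SE 0.27, adjusted p = 4.0e-04). Noc4l, the partner of Nop14 in small subunit assembly, read 1678 and 1749 against 377 and 183 and gave 2.63 (SE 0.36, adjusted p = 0.0019), and its other 3 probe sets lay between 1.63 and 2.60. Utp25 read 855 and 837 against 177 and 119, with 2.42 (SE 0.31, adjusted p = 0.0015).

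Other processome genes did not move with them. Utp14a, the cofactor of the helicase Dhx37, read 2395 and 2602 on the leukemic arrays and 2857 and 2147 on the mature arrays, with overlapping groups and a log2 fold change of 0.011 (SE 0.24, adjusted p = 0.97). Its intronless copy Utp14b read 97.8 and 75.5 against 14.0 and 181, and the mature replicates lay on either side of the leukemic arrays (0.41, SE 0.86, adjusted p = 0.74). Utp3 read 2107 and 2596 on the leukemic arrays and 2155 and 2277 on the mature arrays, also with overlap (0.078, SE 0.23, adjusted p = 0.81). Utp23 read 887 and 881 against 698 and 568 (0.48, SE 0.25, adjusted p = 0.17), without overlap but short of the threshold. The signs of Utp14a and Utp3 changed with every array at the same median (-0.31 and -0.24). Nol6, named after its value was seen, did not pass (1.86, adjusted p = 0.096), and its mature arrays stood far apart, at 17.0 and 179. The 11 genes of this role not named so far had log2 fold changes between 0.69 (Utp11) and 2.40 (Utp4). The call of Utp11 was lost without leukemic replicate 1 (0.66, adjusted p = 0.24), leukemic replicate 2 (0.72, adjusted p = 0.21) or mature replicate 2 (0.56, adjusted p = 0.074), and Utp11 fell with the hybridization controls (-0.63, adjusted p = 0.049). Nol6 passed without mature replicate 2 (3.14, adjusted p = 0.0056).

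Large subunit assembly factors rose in 10 of 11 cases, with a median of 2.15. Nop16 read 1282 and 1170.5 on the leukemic arrays and 182 and 82.3 on the mature arrays, a difference of 3.15 (SE 0.38, adjusted p = 0.0013). Rrp15 read 2129 and 2178 on the leukemic arrays and 294 and 219 on the mature arrays, with 3.01 (SE 0.26, adjusted p = 4.8e-04). Noc3l, which is known to act in early large subunit particles with Noc2l, read 565 and 616 against 64.4 and 63.5, with mature replicates that nearly coincide and 2.92 (SE 0.32, adjusted p = 9.6e-04). Nol8 read 618 and 887 against 142 and 87.2 and gave 2.57 (SE 0.36, adjusted p = 0.0021), and its other probe sets gave 2.57 and 3.49. All of these lay above every mature array in both leukemic arrays. Nop53, which brings the exosome to the large subunit precursor, read 11279 and 12509.7 on the leukemic arrays and 6907 and 4817 on the mature arrays, a smaller difference of 1.04 (SE 0.26, adjusted p = 0.018). Of a pair of paralogs, Rrp1 read 4426 and 4488 against 1899 and 1486, with 1.40 (SE 0.23, adjusted p = 0.0036). Rrp1b read 1059 and 809 against 445 and 362, with 1.17 (SE 0.28, adjusted p = 0.014).

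The calls of Nop53 and Rrp1b were the weaker ones of this role. Without leukemic replicate 1 they were at 1.11, adjusted p = 0.064 and 0.98, adjusted p = 0.15, and without leukemic replicate 2 at 0.97, adjusted p = 0.11 and 1.36, adjusted p = 0.066. Both also lost the call with every array at the same median (0.72, adjusted p = 0.17 and 0.86, adjusted p = 0.092), and both turned with the hybridization controls (-0.29 and -0.12). The probe set of Nop53 can match several transcripts, and without sets of that kind Nop53 was at 0.46, adjusted p = 0.50. Nol12, a nuclease of the large subunit pathway, did not pass (0.85, adjusted p = 0.050; named after its value was seen), but did without mature replicate 1 (1.12, adjusted p = 0.021). The remaining Noc2l, Rrp12 and Nol9 rose by 2.53, 2.15 and 1.81. Of the 11, 5 rose with the hybridization controls, and there Rrp1 (0.076, adjusted p = 0.79), Rrp12 (0.95, adjusted p = 0.064) and Nol9 (0.53, adjusted p = 0.17) did not pass.

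**Figure D3:**
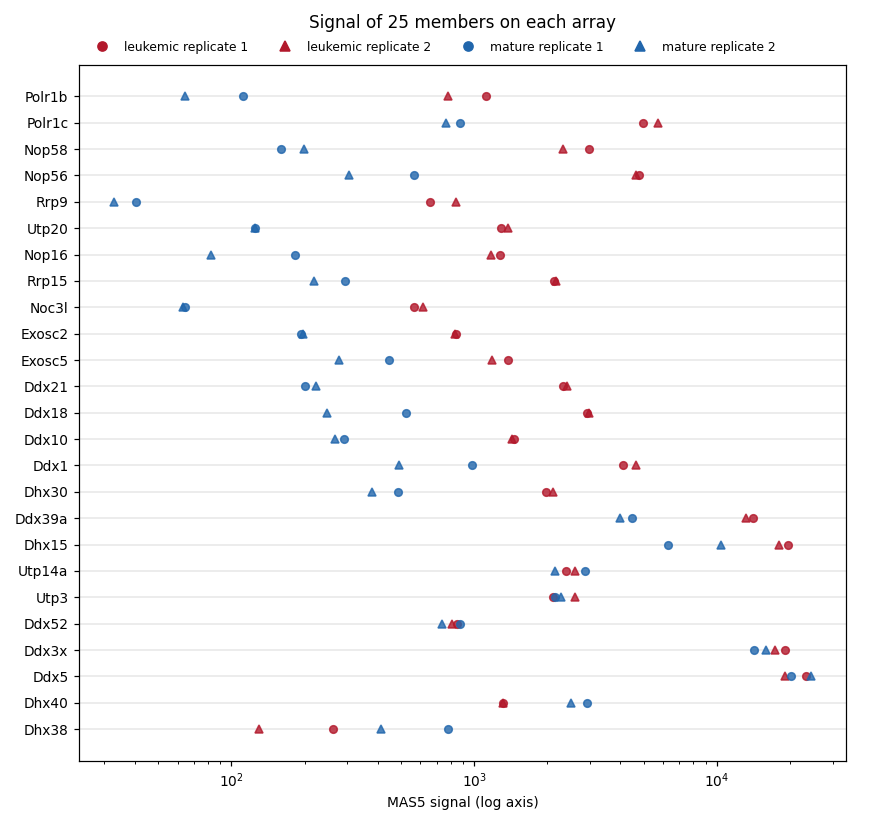
MAS5 signal (x axis, log scale) of 25 genes (y axis) on each array, leukemic in red and mature in blue, circles for replicate 1 and triangles for replicate 2. Polr1b, Nop58, Rrp9 and Ddx21 show separated groups, Utp14a, Utp3, Ddx52 and Ddx5 overlap, and Dhx40 and Dhx38 have the mature arrays on the right. Distances are compared within a gene, since signals of different probe sets are not on a common scale.

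The exosome is a ring of 6 subunits with a cap of 3, to which the nuclease Exosc10 binds. Of its 9 tested subunits 7 rose and 0 fell, with a median of 1.43, and all 9 lay above 0. In the cap, Exosc2 read 844 and 830.0 on the leukemic arrays and 193 and 196 on the mature arrays, with 2.02 (SE 0.27, adjusted p = 0.0017), and Exosc3 880.3 and 729 on the leukemic arrays and 384 and 416 on the mature arrays, with 0.97 (SE 0.26, adjusted p = 0.022). The cap subunit Exosc1 read 1838 and 2024 against 652 and 510.2 and gave 1.71 (SE 0.25, adjusted p = 0.0023). In the ring, Exosc5 read 1372 and 1178 against 444 and 278, with 1.81 (SE 0.30, adjusted p = 0.0037), and Exosc8 3798 and 4082 against 1712 and 958, with 1.61 (SE 0.31, adjusted p = 0.0062). None of these overlapped between groups. Exosc4, another ring subunit, read 559 and 699 against 561 and 331, with overlap and 0.52 (SE 0.33, adjusted p = 0.25). With the mean of its probe sets Exosc4 passed (1.00, adjusted p = 0.035), while Exosc8 did not (0.63, adjusted p = 0.057).

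Exosc3 did not pass without leukemic replicate 1 (0.84, adjusted p = 0.20) or 2 (1.11, adjusted p = 0.11), nor at the same median (0.66, adjusted p = 0.16), and it turned with the hybridization controls (-0.32). With those controls the role's median was 0.11 and limma called 0 of the 9 (1 higher and 1 lower at an unadjusted p under 0.05), so that Exosc1 (0.40, adjusted p = 0.20), Exosc2 (0.74, adjusted p = 0.050), Exosc5 (0.51, adjusted p = 0.19) and Exosc8 (0.29, adjusted p = 0.46) also lost their calls. Exosc6 was too dim to be tested, at 90.0 and 48.6 on the leukemic arrays and 7.11 and 16.3 on the mature arrays. The 14 tested partners of the exosome include its second catalytic subunit and parts of the helicase complexes that feed it RNA. Of these, 6 rose (42.9%) and 0 fell, with a median of 0.90. With the signals as deposited, 27.5% of all tested genes rose and 15.9% fell, with a median of 0.28. Ttc37, a scaffold of the cytoplasmic helicase complex, gave 2.19, adjusted p = 0.0014, the nuclease gene Dis3 2.03, adjusted p = 0.0011, and Wdr61, another part of the cytoplasmic complex, 1.69, adjusted p = 0.0016. With the hybridization controls Wdr61 did not pass (0.36, adjusted p = 0.19).

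The 4 other genes with a Nol symbol are not counted as processing factors here. Nol7 read 5153 and 5824 against 2825 and 2184 (1.14, SE 0.24, adjusted p = 0.0089), and Nol4l 338 and 393 against 207 and 134 (1.06, SE 0.35, adjusted p = 0.044). Nol7 did not pass without leukemic replicate 2 (1.05, adjusted p = 0.083). Nol4l did not pass without leukemic replicate 1 (1.17, adjusted p = 0.16), leukemic replicate 2 (0.96, adjusted p = 0.26) or mature replicate 2 (0.77, adjusted p = 0.090). At the same median neither passed (0.82, adjusted p = 0.10 and 0.76, adjusted p = 0.19), and both turned with the hybridization controls (-0.19 and -0.19). Nol3, which encodes an inhibitor of apoptosis, did not pass (0.71, adjusted p = 0.38), and Nol4 was not tested, since its brightest probe set read 2.14 and 5.71 on the leukemic arrays and 50.3 and 12.1 on the mature arrays.

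The helicases rose in a smaller share than the other 53 tested genes, a set that includes the other Nol symbols. Of the 45 tested, 23 rose and 2 fell (51.1% and 4.44%), with a median of 0.99, while of those 53 genes 42 rose and 0 fell (79.2%), with a median of 1.61. The difference between these shares was not tested. Among the 16 helicases with a nucleolar role, 10 rose and 0 fell, with a median of 1.43. With the hybridization controls 5 of these 16 rose and 3 fell (all tested genes 8.75% and 48.0%), with a median of 0.27. Among the other 29, with the signals as deposited, 13 rose and 2 fell, with a median of 0.49. The median of all tested genes was 0.28.

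Ddx21, a helicase of the nucleolus that is known to act in polymerase I transcription and snoRNA work, read 2323 and 2401 on the leukemic arrays and 202 and 223 on the mature arrays. The leukemic arrays lay far above both mature arrays, at 3.38 (SE 0.24, adjusted p = 2.8e-04), and its other probe set gave 2.64. Its paralog Ddx50 read 2158 and 2255 on the leukemic arrays and 1371 and 1482 on the mature arrays, without overlap but with a difference of 0.62 (SE 0.22, adjusted p = 0.057). Whether the members of this pair differ from each other was not tested. Ddx18, of the large subunit pathway, read 2921 and 2965 against 521 and 248, with 2.97 (SE 0.36, adjusted p = 0.0013). Ddx10, its relative in the small subunit pathway, read 1459 and 1433 against 291 and 266, with 2.31 (SE 0.25, adjusted p = 8.6e-04). Ddx27 read 1143 and 1161 against 253 and 119, with 2.61 (SE 0.37, adjusted p = 0.0022). These 4 calls held whichever array was left out and with the hybridization controls.

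At the other end of the nucleolar helicases, Ddx52 read 853 and 808 on the leukemic arrays and 872 and 740.0 on the mature arrays, with overlapping groups (0.047, SE 0.24, adjusted p = 0.90), and its sign changed at the same median (-0.27). Ddx24 read 1282 and 1209 against 734 and 931 (0.58, SE 0.25, adjusted p = 0.099), and Ddx47 3450.0 and 3679.9 against 2523 and 1819.7 (0.73, SE 0.25, adjusted p = 0.051), both without overlap. Without mature replicate 2, Ddx24 (0.75, adjusted p = 0.043) and Ddx50 (0.68, adjusted p = 0.047) passed, and without mature replicate 1 Ddx47 did (0.96, adjusted p = 0.017). Ddx47 also passed with quantile normalization (0.83, adjusted p = 0.033). With the hybridization controls Ddx50, Ddx24 and Ddx47 were at -0.69, -0.73 and -0.59. The other 8 helicases of this role lay between 0.99 (Ddx31) and 2.25 (Dhx33).

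Of the 13 helicases placed with splicing, 6 rose and 2 fell, with a median of 0.49 that turned to -0.81 with the hybridization controls. These shares were 46.2% and 15.4%, against 27.5% and 15.9% of all tested genes, so the share that fell was near that of all genes. Dhx15, which takes apart spent spliceosomes and also acts on ribosomal precursors, read 19605 and 18085 on the leukemic arrays and 6311 and 10404 on the mature arrays, with 1.21 (SE 0.30, adjusted p = 0.017). Ddx39b, which acts in spliceosome assembly and mRNA export, read 8480.0 and 7471 against 3830.1 and 3618 (1.09, SE 0.22, adjusted p = 0.0077). Dhx32 read 469.9 and 597 against 235 and 111 (1.61, SE 0.40, adjusted p = 0.017) and Dhx35 576 and 566 against 286 and 216 (1.15, SE 0.29, adjusted p = 0.018). In all 4 the leukemic arrays lay above the mature ones. Ddx42 and Ddx20 also rose (0.91 and 0.89), and are named after their values were seen. Ddx41, Ddx46, Dhx16, Ddx23 and Dhx8 did not pass, the last of them with both mature arrays above the leukemic ones (-0.40). At the same median 0 of the 13 rose by limma and 2 fell (3 higher and 2 lower at an unadjusted p under 0.05). Of all tested genes 18.3% rose and 18.5% fell with that scaling. There, Dhx15, Ddx39b, Dhx32 and Dhx35 were at 0.89, adjusted p = 0.067; 0.77, adjusted p = 0.099; 1.31, adjusted p = 0.051; and 0.84, adjusted p = 0.11, and Ddx42 and Ddx20 at 0.60, adjusted p = 0.20; and 0.58, adjusted p = 0.21. Dhx15, Ddx39b, Dhx35, Ddx42 and Ddx20 turned with the hybridization controls (-0.11, -0.23, -0.12, -0.39 and -0.41), and Dhx32 did not pass (0.36, adjusted p = 0.48).

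The splicing helicases also held the genes that fell. Dhx40 read 1309 and 1308 on the leukemic arrays and 2927 and 2509.7 on the mature arrays, with both mature arrays above both leukemic arrays and -1.04 (SE 0.22, adjusted p = 0.0096). Dhx38, which remodels the spliceosome between its catalytic steps, read 263 and 129.6 on the leukemic arrays and 782 and 413 on the mature arrays, also without overlap, with -1.54 (SE 0.45, adjusted p = 0.030). The Dhx38 call came from a probe set that can match several transcripts, while its other, dimmer probe set gave 0.21. Dhx38 did not pass without leukemic replicate 2 (-1.07, adjusted p = 0.20) or mature replicate 1 (-1.09, adjusted p = 0.13). Dhx40 did not pass without leukemic replicate 1 (-1.04, adjusted p = 0.072) or 2 (-1.04, adjusted p = 0.083). Without leukemic replicate 1, Dhx15, Ddx39b, Dhx32 and Dhx35 were at 1.16, adjusted p = 0.073; 1.00, adjusted p = 0.067; 1.78, adjusted p = 0.062; and 1.14, adjusted p = 0.13. Without leukemic replicate 2, Dhx15, Dhx32 and Dhx35 were at 1.27, adjusted p = 0.064; 1.44, adjusted p = 0.13; and 1.16, adjusted p = 0.14. Ddx42 was at 0.92, adjusted p = 0.16 without leukemic replicate 1 and 0.90, adjusted p = 0.18 without 2. Ddx20 was at 0.92, adjusted p = 0.18 and 0.86, adjusted p = 0.23, and at 0.65, adjusted p = 0.075 without mature replicate 1.

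Of the 12 helicases of export, translation, decay and transcription, 4 rose and 0 fell, and their median of 0.37 turned to -0.93 with the hybridization controls. The share that rose, 33.3%, and the median lie near those of all tested genes, 27.5% and 0.28. Of all tested genes 15.9% fell. Ddx1, part of the tRNA ligase complex, read 4102 and 4622 on the leukemic arrays and 981 and 489.7 on the mature arrays, with 2.62 (SE 0.34, adjusted p = 0.0017). Ddx19b, which releases mRNA at the nuclear pore, read 666 and 611 against 102 and 155 (2.20, SE 0.33, adjusted p = 0.0025). It has a near copy, Ddx19a, which was not read here, so the signal is uncertain between them. Ddx39a, the export helicase related to Ddx39b, read 14079 and 13194 against 4470.3 and 3977 (1.69, SE 0.23, adjusted p = 0.0017), and its next 3 probe sets by brightness gave 1.67, 1.70 and 2.05. Dhx9, a helicase of transcription and RNA structure, read 6636 and 8458 against 2602 and 3144 (1.38, SE 0.25, adjusted p = 0.0045). Without leukemic replicate 2 Dhx9 was just short of the threshold (1.21, adjusted p = 0.050). Both Dhx9 (0.058, adjusted p = 0.85) and Ddx39a (0.36, adjusted p = 0.20) lost their calls with the hybridization controls.

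The other 8 helicases of this role did not pass, whether or not their arrays overlapped. Ddx5 read 23192 and 19097 on the leukemic arrays and 20088 and 24442 on the mature arrays, and its paralog Ddx17 read 18178 and 17945 on the leukemic arrays and 12937 and 15205 on the mature arrays. Both are coregulators of transcription and splicing. The Ddx5 arrays overlapped (-0.074, SE 0.27, adjusted p = 0.85), while both leukemic arrays of Ddx17 lay above the mature ones (0.36, SE 0.24, adjusted p = 0.27). The probe sets of both disagreed in sign, with 0.97 and -0.47 for the next brightest of Ddx5 and -0.70 for the dimmest of Ddx17. Ddx3x, a translation initiation helicase, read 19139 and 17342 on the leukemic arrays and 14148 and 15863 on the mature arrays (0.28, SE 0.24, adjusted p = 0.39), also without overlap. Its next brightest probe set overlapped between groups and gave -0.11, and its dimmest gave 0.16. Dhx36, which unwinds G-quadruplexes and is a relative of Dhx9, read 1430.0 and 1598 against 953 and 1431 with overlap (0.37, SE 0.27, adjusted p = 0.32). Dhx29, of the scanning ribosome, read 616 and 696 against 467 and 532 without overlap (0.38, SE 0.26, adjusted p = 0.28). Scaled to the hybridization controls, 8 of the 12 fell, Ddx5 among them (-1.40, adjusted p = 0.0043). With that scaling 48.0% of all tested genes fell, and the median of all tested genes was -0.95, near this role's -0.93. The remaining Dhx34, Dhx57 and Ddx6 did not pass (0.42, 0.25 and -0.26).

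Both helicases of mitochondrial ribosome assembly rose. Dhx30 read 1977 and 2109 on the leukemic arrays and 485 and 377 on the mature arrays, with 2.21 (SE 0.25, adjusted p = 0.0010), and Ddx28 read 354 and 475 on the leukemic arrays and 178 and 17.1 on the mature arrays, with 2.41 (SE 0.77, adjusted p = 0.042). The SE of Ddx28 was wide, and its mature arrays differed about as much from each other as from the leukemic ones. It did not pass without leukemic replicate 1 (2.61, adjusted p = 0.094) or 2 (2.20, adjusted p = 0.16), with quantile normalization (2.10, adjusted p = 0.095), or with the hybridization controls (1.27, adjusted p = 0.23). Without probe sets of the kinds that may detect several transcripts Dhx30 was at 0.68, adjusted p = 0.23. Among the helicases with no listed role in these steps, Ddx59 read 603 and 672 against 113 and 133 (2.24, SE 0.30, adjusted p = 0.0018). The DNA helicase gene Ddx11 read 543 and 549.8 against 379 and 382 (0.50, SE 0.26, adjusted p = 0.16), with the leukemic arrays above the mature ones. Ddx25 and Ddx43, known for germ cells, were too dim to be tested. Ddx25 read 61.5 and 20.3 on the leukemic arrays and 24.6 and 43.3 on the mature arrays. Ddx43 read 8.70 and 7.59 on the leukemic arrays and 5.18 and 2.59 on the mature arrays.

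Several probe sets of a gene gave a further look at the same RNA. Of the 57 genes with more than 1 kept probe set, 48 had all of them on the same side of 0. Among genes that rose, 58 of 60 dimmer kept probe sets lay above 0 and 39 were at least 2-fold higher, with a median of 1.36. Probe sets of a gene share the RNA of the array and are not replicates.

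Further genes of ribosome assembly were read from a list of genes that the symbol rule does not take. The list was chosen with earlier results of these data known. Of its 78 tested genes 68 rose (87.2%) and 0 fell, with a median of 1.80, and all 78 lay above 0. Of all 12379 tested genes 27.5% rose and 15.9% fell, with a median of 0.28, and 7370 lay above 0. Tsr1, a maturation factor of the small subunit, read 6255 and 5805 on the leukemic arrays and 329 and 239 on the mature arrays, with 4.35 (SE 0.25, adjusted p = 1.5e-04). Wdr12, of the complex that processes the large subunit precursor, read 2115 and 2289 against 196 and 148 (3.57, SE 0.27, adjusted p = 3.1e-04), and Nob1, the nuclease that makes the final 3′ end of the small ribosomal RNA, read 2564 and 2004 against 237 and 141 (3.52, SE 0.32, adjusted p = 5.5e-04). The exosome partners and this list together held 74 genes that rose of 92 tested. With the hybridization controls 33 of the 92 rose and 12 fell (all tested genes 8.75% and 48.0%). Without leukemic replicate 2 fewer of the 92 rose than with all arrays.

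Genes of dividing cells gave smaller log2 fold changes than the nucleolar genes, a difference that was not tested. Of 13 tested, 4 rose (30.8%) and 0 fell, with a median of 0.39. This lies near all tested genes, of which 27.5% rose, with a median of 0.28, while 15.9% of them fell. Their signals summed to 84728 and 78449 on leukemic against 60462 and 52936 on mature arrays. The replication genes Mcm2 (1.99, adjusted p = 0.0017), Mcm3 (1.59, adjusted p = 0.0026), Tyms (1.13, adjusted p = 0.037) and Pcna (0.85, adjusted p = 0.028) rose, and Mki67 (0.21, adjusted p = 0.52), Top2a (0.24, adjusted p = 0.45) and Bub1 (-0.12, adjusted p = 0.69) did not pass. Mki67 read 15597 and 13553 on the leukemic arrays and 13746 and 11422 on the mature arrays, so its signal was similar in the sorted mature cells. These genes were picked for naming after their values were seen.

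**Figure D4:**
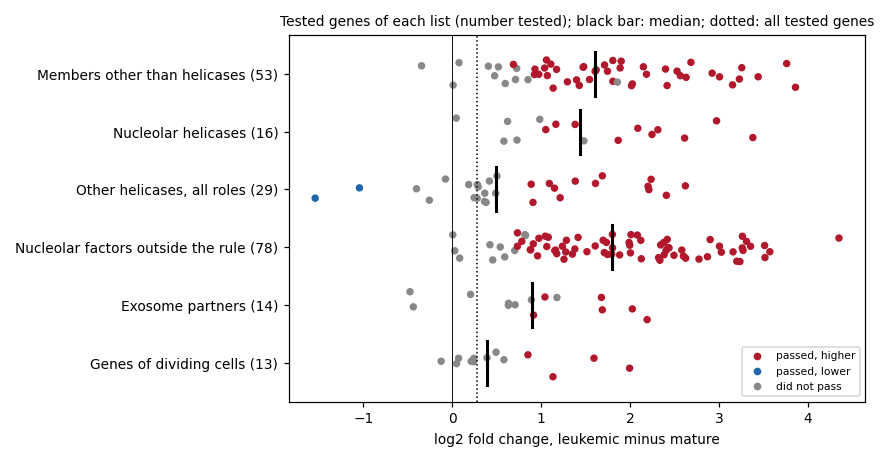
Log2 fold change (x axis, leukemic minus mature) of each tested gene (points) in 6 lists (rows, with the number tested), red where it rose, blue where it fell and grey where it did not pass. Black bars are list medians and the dotted line is the median of all tested genes. The medians run from 1.80 for nucleolar factors outside the symbol rule and 1.61 for the members other than helicases to 0.39 for genes of dividing cells.

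The mature replicates differed in one direction more in these genes than over all genes. The median log2 difference, replicate 1 minus replicate 2, was 0.26 over the 98 genes and 0.029 over all tested genes. Between the leukemic replicates it was -0.024 and -0.0057. Without mature replicate 2 the group's median was 1.21, and 63 rose and 3 fell. Without mature replicate 1 it was 1.33, and 69 rose and 2 fell.

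Since most of these genes moved together, the 250 bases before their start sites were searched for 3 motifs, on both strands, in RefSeq promoter sequences of build GRCm38.p6. For 84 of the 98 genes the table held 104 such windows. The letters CACGTG, the E-box that MYC and its relatives can bind, stood in 12 windows (11.5%), against 8.17% of the windows of all tested genes and 6.02% of those in the whole table. The letters CCGGAAG, the core that ETS factors can bind, stood in 27 (26.0%), against 12.8% and 6.91%. The letters GCGCATGC, a core of NRF1 sites, stood in 8 (7.69%), against 4.11% and 2.26%. None of the 3 motifs contains another. In genes that rose the E-box was in 12.5% of 72 windows and the ETS core in 22.2%, and in the tested others they were in 9.38% and 34.4% of 32 windows. The NRF1 core was in 4.17% and 15.6%. In the 3495 windows of all tested genes that rose, the E-box was in 8.93%, the ETS core in 14.0% and the NRF1 core in 5.15%. The differences rest on few windows of the 84 genes and were not tested. A match is a run of letters and says nothing of binding, and the windows' median GC content was 59.8%, against 59.2% for all tested genes.

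To show these elements beside the values, windows of genes from several roles are printed 5′ to 3′ on the gene's strand, up to the start site at most, with the motif in capitals. The E-box windows come from genes that rose by 2.25 (Dhx33), 2.18 (Nop2), 1.90 (Nol11), 1.81 (Exosc5) and 1.54 (Utp18), and, as a contrast, from Ddx5, whose groups overlapped, and Dhx40, which fell.
Dhx33 (chr11:71004433-71004504, minus strand): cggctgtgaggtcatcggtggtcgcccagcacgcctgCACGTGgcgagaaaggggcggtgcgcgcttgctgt
Nop2 (chr6:125131786-125131865, plus strand): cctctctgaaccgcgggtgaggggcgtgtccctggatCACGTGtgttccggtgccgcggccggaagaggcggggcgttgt
Nol11 (chr11:107189382-107189461, minus strand): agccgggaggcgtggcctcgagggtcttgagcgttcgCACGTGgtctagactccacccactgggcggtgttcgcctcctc
Exosc5 (chr7:25659072-25659151, plus strand): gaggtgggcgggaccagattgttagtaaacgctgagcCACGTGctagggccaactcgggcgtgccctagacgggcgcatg
Utp18 (chr11:93885767-93885823, minus strand): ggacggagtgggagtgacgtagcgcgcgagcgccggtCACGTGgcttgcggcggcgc
Ddx5 (chr11:106788908-106788974, minus strand): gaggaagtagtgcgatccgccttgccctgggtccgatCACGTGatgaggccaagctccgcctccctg
Dhx40 (chr11:86807738-86807817, minus strand): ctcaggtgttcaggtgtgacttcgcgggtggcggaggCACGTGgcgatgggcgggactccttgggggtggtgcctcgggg

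In these windows the E-box began 35 bases before the start in Dhx33, 60 in Nop2, 43 in Nol11, 44 in Exosc5, 20 in Utp18, 30 in Ddx5 and 120 in Dhx40. The Nop2 window also holds the ETS core, in lower case, 38 bases before the start. Windows with the ETS core are shown for genes that rose by 2.68 (Polr1c), 2.62 (Ddx1), 2.31 (Ddx10) and 2.21 (Dhx30), and for Utp3, which did not pass.
Polr1c (chr17:46248046-46248124, minus strand): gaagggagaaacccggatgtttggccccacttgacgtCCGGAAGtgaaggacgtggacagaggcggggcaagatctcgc
Ddx1 (chr12:13249175-13249236, minus strand): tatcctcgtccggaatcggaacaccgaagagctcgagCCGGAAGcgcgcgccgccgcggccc
Ddx10 (chr9:53248256-53248336, minus strand): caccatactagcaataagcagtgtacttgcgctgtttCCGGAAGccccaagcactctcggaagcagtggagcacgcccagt
Dhx30 (chr9:110117637-110117717, minus strand): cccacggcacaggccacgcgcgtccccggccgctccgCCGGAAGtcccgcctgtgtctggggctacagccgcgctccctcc
Utp3 (chr5:88554212-88554281, plus strand): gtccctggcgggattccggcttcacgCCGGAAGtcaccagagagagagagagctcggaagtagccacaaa

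The ETS core began 42 bases before the start in Polr1c, 25 in Ddx1, 187 in Ddx10, 64 in Dhx30 and 224 in Utp3. Both kinds of element thus stand before genes with large log2 fold changes, such as Polr1c and Nop2, and before genes whose groups overlapped, such as Ddx5 and Utp3, and the E-box also stands before Dhx40, which fell.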

How the data were processed

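Total RNA of 2 MN1 leukemic and 2 Gr1/Mac1 marrow samples was hybridised to single-colour arrays with 45101 probe sets, 64 of them controls. The authors deposited linear intensities, the signals of the MAS5 algorithm, for which the submitters' processing notes name GCOS 1.3.0. On every array the trimmed mean (2% off each end) is 500.003 or 500.004. The sources used here state neither a scale target nor detection calls. MAS5 leaves dim probe sets noisy, and linear scaling lets the RNA composition move all signals. Gene symbols are those of GEO's platform annotation, some of them possibly outdated. All 223 probe sets of the members had their gene ID in the RefSeq table, and 0 symbols changed.

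Signals were taken as log2(signal + 16). The 40% of non-control probe sets with the lowest mean were left out, which kept 27023 and put the lowest kept mean at 47.6. Groups were compared over all 12379 genes with limma 3.58.1 in R 4.3.3 (eBayes with a variance trend, two-sided, Benjamini-Hochberg adjustment). The fit was checked on simulated data. Genes were named by a rule: in each role up to 4 of the largest changes in the more frequent direction and 2 in the other, the gene with the highest mean signal, listed paralog pairs, and the 10 that did not pass with the smallest SE. From the lists outside the symbol rule it took up to 3 in each direction. Others were named after their values were seen. Members, roles, lists and tests were chosen with earlier results of these data known, and roles follow textbook knowledge. The replicate numbers are not said to pair arrays, so no block was used. The design text calls the 2 arrays of a group biological replicates, without saying whether each is 1 animal. Alternatives changed the pseudocount, filter, scaling, probe set, variance model, threshold, block or arrays used. Figures were drawn with matplotlib 3.10.9.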

Additional observations from a re-analysis of the deposited data

How the results depend on the processing

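Of 17 other ways to process the data, those named here moved a count by over 1.5 times or a median, or turned a direction. The rise count of 65 went to 24 with the hybridization controls and to 40 to 69 when an array was left out. The fall count of 2 went to 22 with those controls, to 1 with no filter, the mean of probe sets, the loss of probe set kinds that may detect several transcripts or no variance trend, and to 0 to 3 when an array was left out. The number of genes changed, 5375, became 2577 to 5439 with an array left out. The 74 higher genes outside the rule became 33 with the hybridization controls, with 12 lower in place of 0, and 48 to 75 with an array left out. The median of 1.34 became 1.02 at the same median and 0.025 with the hybridization controls. A replicate block left 65 and 2 and changed no call of the genes the naming rule took. Of others named, Nol6 and Nol12 passed with it (1.86, adjusted p = 0.015 and 0.85, adjusted p = 0.040) and Utp11 did not (0.69, adjusted p = 0.063). The correlation over genes of the differences between replicates in the 2 groups was -0.03, so the numbers were not taken to pair arrays.

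Of the 98 genes 43 turned in direction with the hybridization controls and 8 with every array at the same median. Among genes the naming rule took, these were Polr1d (-0.40), Utp14a (-1.31), Nop53 (-0.29), Nol7 (-0.19), Nol4l (-0.19), Ddx47 (-0.59), Dhx15 (-0.11), Dhx35 (-0.12), Ddx39b (-0.23), Ddx11 (-0.78), Ddx17 (-0.97), Ddx50 (-0.69), Utp14b (-0.62), Rrp1b (-0.12), Exosc3 (-0.32), Exosc4 (-0.77), Dhx36 (-0.95), Utp3 (-1.24), Ddx3x (-1.05), Ddx52 (-1.26), Ddx24 (-0.73), Utp23 (-0.82) and Dhx29 (-0.91) with the hybridization controls. Others named that turned there were Ddx42 (-0.39), Ddx20 (-0.41), Utp11 (-0.63), Nol12 (-0.45), Nol3 (-0.34), Ddx31 (-0.25), Ddx41 (-0.81), Ddx46 (-1.02), Dhx16 (-1.04), Ddx23 (-1.01), Dhx34 (-0.87) and Dhx57 (-1.04). At the same median, genes the rule took were Utp14a (-0.31), Utp3 (-0.24), Ddx3x (-0.039) and Ddx52 (-0.27). Other turns of such genes were Ddx52 (-0.15) with quantile normalization, Dhx38 (0.21), Ddx5 (0.34), Ddx17 (-0.70) and Utp23 (-0.18) without the kinds that may detect several transcripts, and Ddx5 (0.24) and Ddx17 (-0.10) with the mean of probe sets. With an array left out they were Utp14a (-0.048), Ddx5 (0.066) and Utp3 (-0.071) (leukemic replicate 2), Utp14b (-0.95) (mature replicate 1) and Utp14a (-0.19), Ddx5 (0.067) and Ddx52 (-0.069) (mature replicate 2). Over the 4 fits that each leave out an array, the range was -0.19 to 0.22 for Utp14a, -0.22 to 0.067 for Ddx5, -0.95 to 1.77 for Utp14b, -0.071 to 0.23 for Utp3 and -0.069 to 0.16 for Ddx52. The cause was not tested. Ddx28, Nol3, Nol6, Utp14b and Dhx37 each read under the lowest kept mean signal, 47.6, on 1 array. Their SE were 0.77, 0.61, 0.78, 0.86 and 0.51, against a median of 0.33 over all genes. Rrp9 read under that signal on both mature arrays (40.4 and 32.8), with an SE of 0.35.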
